A study of Mus musculus with 4 samples.

Results

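Large peritoneal macrophages (LPMs) are the resident macrophages of the peritoneal cavity, and the genes described here are those that decide whether such a cell lives or dies. The list holds 40 genes of the cell death machinery: the BCL2 family, the caspases and their inhibitors, the death receptors with their adaptors, the necroptosis kinases, p53 and the calpains. Of these, 36 had an entry among the 18364 genes of the table, and Bcl2a1d, Bak1, Bok and Bik were not analysed here. By textbook role, 9 of the 36 act for survival (BCL2 guardians and caspase inhibitors, 10 listed) and 27 act for death (30 listed).

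Cells sorted as F4/80+ MHCII- CD102+ from C57BL/6 mice aged 8 weeks gave bulk RNA libraries. There were 2 libraries labelled WT and 2 labelled Rxra-KO, a genotype given as Rxra-/-. In the study's text these are Rxra fl/fl littermates and LysM Cre+ Rxra fl/fl mice, so that floxed Rxra, the gene of the retinoid X receptor alpha, is removed only in cells that have expressed Lyz2. The 4 libraries are named below WT 1 and 2 and Rxra-KO 1 and 2. The sources used here do not say whether a library came from 1 animal or a pool, so the spread between libraries may be technical. The limma p-values and intervals below rest mostly on a spread pooled over genes. That pooled spread had 226.6 degrees of freedom, against 2 from a gene's own libraries.

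A cell can take several routes to death. In the mitochondrial route, BH3-only proteins sense stress and overcome the guardians of the BCL2 family, BAX and BAK open the outer mitochondrial membrane, and the released cytochrome c assembles with APAF1 to activate caspase-9. In the receptor route, FAS, TNFR1 and TRAIL-R2 recruit FADD and caspase-8, which the decoy protein cFLIP restrains. When caspase-8 is blocked, RIPK1 and RIPK3 can instead activate MLKL, which ruptures the plasma membrane in necroptosis. Much of this machinery is controlled on the protein, by cleavage, phosphorylation and turnover, which messenger RNA does not report. Resident macrophages are long-lived cells, for which guardians of the BCL2 family are known survival factors.

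The libraries were shallow, with 629030 to 1047021 reads on genes. A normalised read count, the value used below, is a read count put on a common library size, and 1 read was worth 0.993 to 1.51 of it. Rxra itself did not check the labels: it was read 20 and 28 times in WT, and 33 and 77 times in the libraries labelled Rxra-KO (log2 fold change 0.99, limma adjusted p = 0.183). Reads from the retained part of a floxed gene are counted with the rest, and the direction is opposite to the label, so the groups are called by their labels throughout. Lyz2, the locus that carries Cre in such mice, was at 14260 and 11590 in WT against 6386 and 6230 in Rxra-KO (log2 fold change -1.03, limma adjusted p = 0.00163). The summed level of 9 LPM markers was 36600 and 38700 in WT against 19400 and 21700 in Rxra-KO, with 7 of the 9 called lower. Most of that sum was Prg4 (mean 29060 in WT and 15850 in Rxra-KO). No defining marker was at 0, but Gata6 had 3 and 24 reads in Rxra-KO against 35 and 65 in WT. Csf1r went the other way (log2 fold change 0.36) and was not called. The summed level of 6 markers of small peritoneal and monocyte-derived macrophages was 348 and 123 in WT against 3050 and 4480 in Rxra-KO, with 4 of the 6 called higher. That of 6 proliferation genes was 678 and 1520 in WT and 303 and 290 in Rxra-KO, with 3 of the 6 called lower. Most of the WT sum was Mki67 (417 and 942). Ccnb1 (log2 fold change -0.59), Ccna2 (-0.05) and Birc5 (0.04) were not called. In bulk RNA a change in the number of cells of a type and a change in RNA per cell cannot be told apart.

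Across the cell death genes, a single gene passed the test. Capn2, which encodes the large subunit of the calcium-dependent protease calpain-2, rose in the libraries labelled Rxra-KO, and none of the other 35 genes passed. A call needed an adjusted p below 0.05 together with a log2 fold change of 0.6 or more in size. Of all 18364 genes, 421 were called (2.29%), 243 higher (1.32%) and 178 lower (0.969%). With 1 of 36 members called, the count was close to that background. The background was not matched for depth, and the members were read deeper (median of 30.1 mean reads, against 9.25 over all genes). Among genes with a value of at least 10 in 2 or more libraries, 375 of 10359 were called, and 1 of 30 members.

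The other counts were likewise near those of all genes. Of the 36 genes, 20 had a positive and 16 a negative log2 fold change, and 51.1% of all genes were positive. The median log2 fold change was 0.02 over the members and 0.02 over all genes. An unadjusted limma p under 0.05 was found for 4 members, Capn2 and Casp8 on the higher side and Casp2 and Mlkl on the lower, and for 10.1% of all genes (5.68% higher and 4.42% lower). The values of the groups did not overlap in 15 of 36 members, 6 higher and 9 lower, and in 38.1% of all genes (18.8% higher and 19.3% lower).

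**Figure D1:**
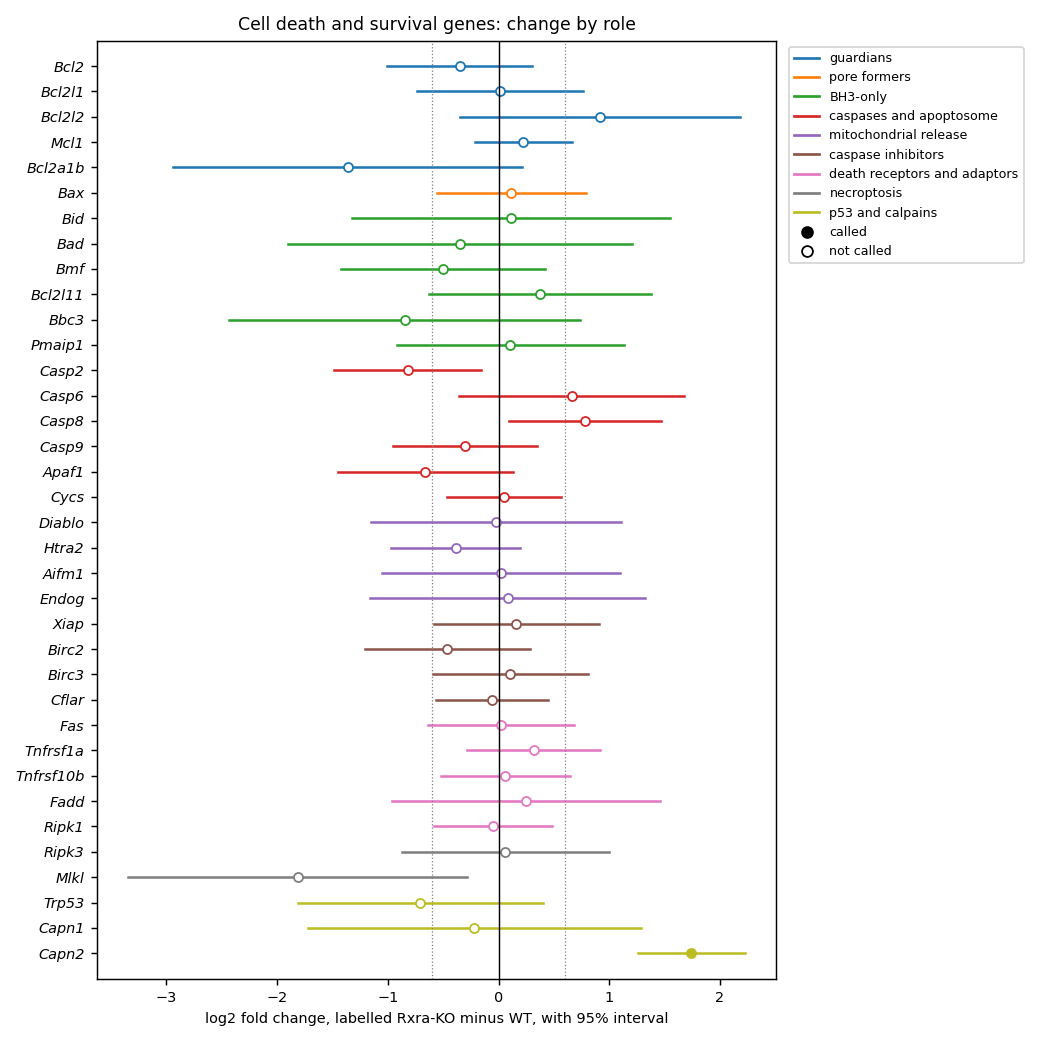
Log2 fold change (labelled Rxra-KO minus WT, horizontal axis) of the 36 genes, coloured by role, with the 95% interval of the limma fit as a bar and the called gene filled; dotted lines mark 0.6 in each direction. Capn2 stands alone at 1.74, and the intervals of 32 of the other 35 genes cross 0.

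A miss of the threshold does not show that a gene stayed the same. The 95% interval of the log2 fold change lay within -1 to 1, a change of less than 2-fold in either direction, for 14 of the 36 members and for 18.0% of all genes. These intervals rest on the pooled spread, so they can be narrower than a gene's own libraries would give. The interval was narrower at higher depth, and the members were read deeper than all genes (median of 30.1 against 9.25 mean reads). The median distance from the estimate to the end of the interval was 0.51 for the 5 members with a mean of at least 100 reads, 0.75 for the 23 with 10 to 100 reads and 1.52 for the 8 with under 10 reads. For the last 8, among them Bid, Bad, Bbc3, Mlkl and Capn1, a change of 2-fold was not detectable at this depth.

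**Figure D2:**
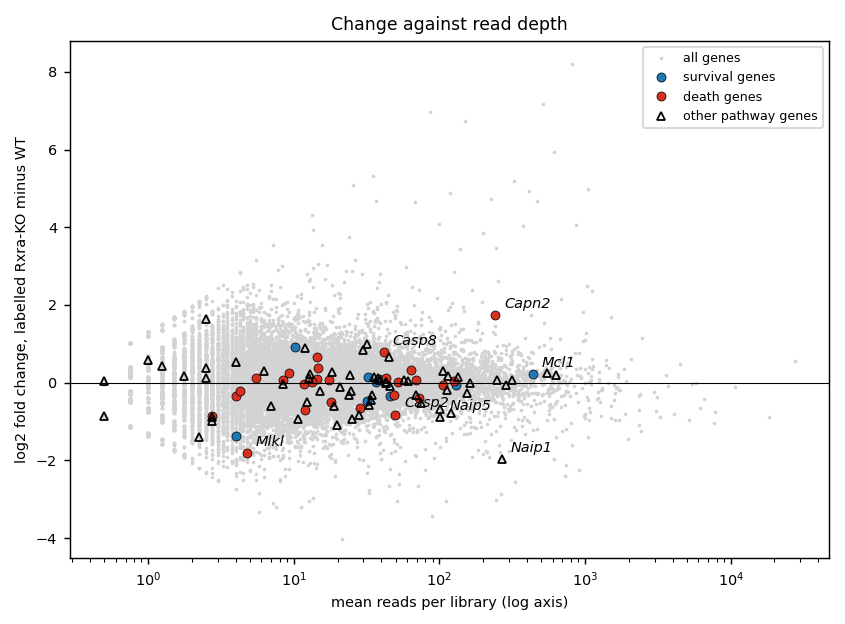
Log2 fold change (labelled Rxra-KO minus WT) against mean reads per library (log axis) for all genes (grey), survival members (blue), death members (red) and 61 other genes of the pathway (triangles). Capn2 (1.74) and Naip1 (-1.97) lie farther from 0 than any other member or pathway gene with a mean of at least 10 reads.

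Among the guardians, which hold the mitochondrial membrane closed, Mcl1 held most of the reads. Mcl1 encodes a short-lived guardian and was read at 432 and 550 in WT against 552 and 587 in Rxra-KO. Its lowest Rxra-KO library lay barely above its highest WT library, and the log2 fold change of 0.22 (95% interval -0.21 to 0.66, limma adjusted p = 0.854) did not pass the test. Bcl2, the founding guardian of the family, was at 75.0 and 55.9 in WT against 48.9 and 52.1 in Rxra-KO, with a log2 fold change of -0.35 (interval -1.01 to 0.31). Bcl2l1, which encodes BCL-XL, was at 26.5 and 60.2 in WT against 29.4 and 55.1 in Rxra-KO, and the libraries of a group differed more than the groups did. Bcl2l2 (BCL-W) ran from 3.79 to 18.4 over the 4 libraries.

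Bcl2a1b belongs to the A1 genes, near-identical mouse copies of a guardian induced in activated leukocytes, and its level is uncertain for that reason. It had 5 and 6 reads in WT against 0 and 5 in Rxra-KO, and did not pass the test (log2 fold change -1.36, limma adjusted p = 0.607). Of the 31-base words of its longest coding transcript in GENCODE M21, 88.8% also occurred in other genes, and 72.4% occurred in Bcl2a1d, another gene of the list. The coding sequences of both genes are 516 bases long, not counting the stop codon, and differ at 6 positions (98.8% identity). Their first 90 bases are shown because no stretch of that length held more differences. Even there, reads could be told apart at only 2 positions, in capitals, G4T and T48C. Positions are counted from 1 at the start codon, with the Bcl2a1b base first.
Bcl2a1b: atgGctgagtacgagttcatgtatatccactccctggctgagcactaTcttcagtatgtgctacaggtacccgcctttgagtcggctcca
Bcl2a1d: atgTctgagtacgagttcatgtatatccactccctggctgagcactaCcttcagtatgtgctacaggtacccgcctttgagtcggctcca

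Bax, whose product forms the pore in the mitochondrial membrane, was the only pore former measured. It was at 68.9 and 38.5 in WT against 56.5 and 55.1 in Rxra-KO, and both Rxra-KO values lay between the WT values. Its log2 fold change was 0.11 (interval -0.56 to 0.79).

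The BH3-only genes, the stress sensors upstream of BAX, were low in these cells, with 2.75 to 18 mean reads per library, and 3 of 6 were positive and 3 negative. The highest normalised read count was that of Bmf, which answers loss of attachment, although per kilobase of transcript Pmaip1 was above it in both groups. Bmf was at 26.5 and 27.7 in WT against 20.3 and 17.4 in Rxra-KO. Its groups did not overlap, and its log2 fold change of -0.50 did not pass the test (limma adjusted p = 0.831). Bcl2l11, which encodes BIM, was the opposite case, at 14.4 and 17.9 in WT against 21.8 and 20.4 in Rxra-KO (log2 fold change 0.37, limma adjusted p = 0.920). Bbc3 (PUMA, a p53 target) had 2 and 6 reads in WT against 2 and 1 in Rxra-KO, a WT to Rxra-KO ratio of 2.82 with a counting interval of 0.676 to 16.5. Pmaip1 (NOXA, which antagonises MCL1), Bid and Bad all overlapped between the groups.

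**Figure D3:**
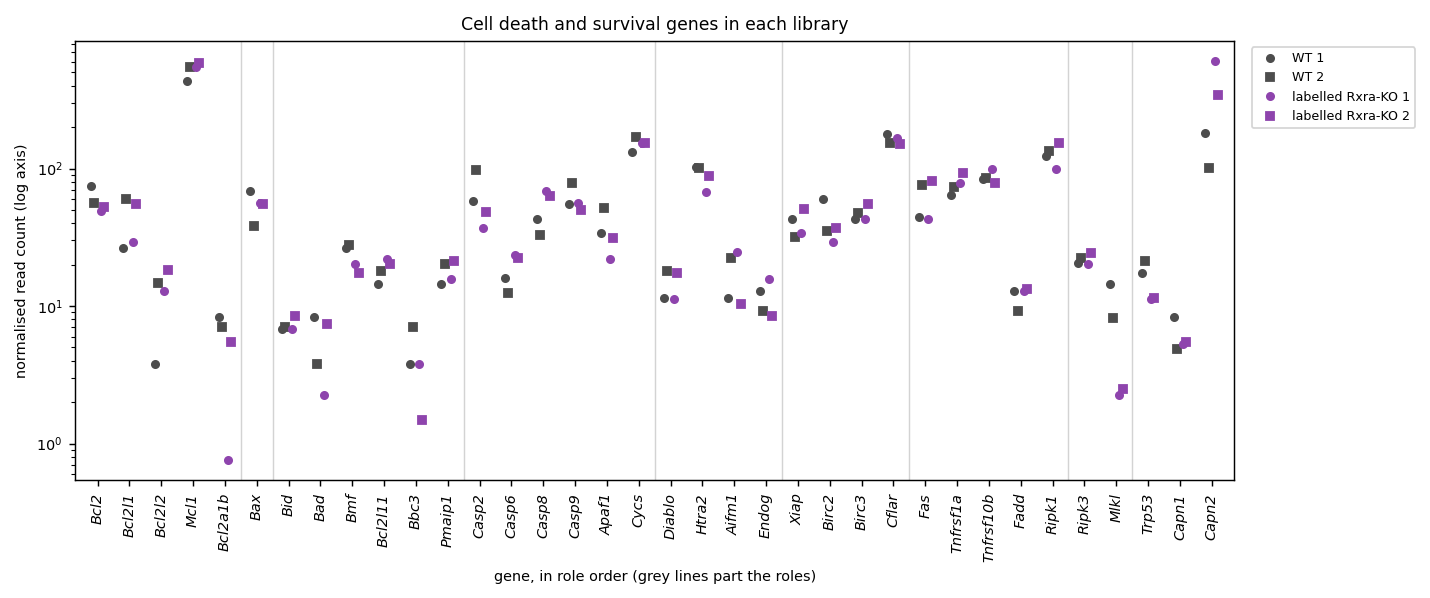
Normalised read count (log axis) of each member in each of the 4 libraries, in order of role; circles are replicate 1 and squares replicate 2, grey for WT and purple for labelled Rxra-KO. Mcl1 is the highest member in 3 libraries and Capn2 in Rxra-KO 1, and Capn2 shows the widest gap among members above 100.

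No caspase passed the test, and the initiator caspases had fold changes of both signs. Casp8, the initiator of the receptor route and also a brake on necroptosis, was at 43.2 and 33.1 in WT against 68.5 and 63.1 in Rxra-KO. All Rxra-KO values exceeded all WT values, with a log2 fold change of 0.78 (interval 0.10 to 1.47, limma adjusted p = 0.359). Casp2, an initiator linked to p53 and DNA damage, was at 58.3 and 97.1 in WT against 36.9 and 48.2 in Rxra-KO, again without overlap but in the other direction. Its log2 fold change was -0.82 (interval -1.48 to -0.16, limma adjusted p = 0.283). Neither gene passed the test once all genes were taken into account. For both, the unadjusted p was not under 0.05 in DESeq2 or in limma without its mean-variance trend.

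The other caspases and the apoptosome genes showed the same mix. Casp6, an executioner caspase, had a log2 fold change of 0.66, and Casp9, the initiator bound by APAF1, one of -0.30. Apaf1, the scaffold of the apoptosome, was at 34.1 and 51.5 in WT against 21.8 and 31.3 in Rxra-KO (log2 fold change -0.66, limma adjusted p = 0.631). Casp2 and Apaf1 were each highest in WT 2, the library with the highest summed proliferation markers (1520), and the part of proliferation in these values was not tested. Cycs, which encodes cytochrome c and serves respiration in living cells, was at 131 and 171 in WT against 154 and 154 in Rxra-KO. In Cycs, 32% of the 31-base words occur in other genes, among them Gm10053, so its level is uncertain.

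Of the proteins that leave the mitochondrion beside cytochrome c, Htra2, a protease that removes caspase inhibitors, was the highest. It was at 102 and 100 in WT against 67.0 and 88.9 in Rxra-KO, with no overlap and a log2 fold change of -0.39 (interval -0.97 to 0.19, limma adjusted p = 0.758). Diablo (SMAC), Aifm1 (apoptosis-inducing factor) and Endog (endonuclease G) had log2 fold changes between -0.02 and 0.08, and their groups overlapped. Of the words of Htra2 28% and of those of Endog 34.1% occur in other genes.

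None of the 4 caspase inhibitors passed the test, and the values of all 4 overlapped between the groups. Cflar, which encodes the caspase-8 decoy cFLIP, was the highest of them, at 179 and 154 in WT against 168 and 152 in Rxra-KO. Its log2 fold change of -0.06 had an interval of -0.56 to 0.45. Xiap, a direct inhibitor of caspases, and Birc2 and Birc3, the ubiquitin ligases cIAP1 and cIAP2, ranged from -0.46 to 0.16.

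A ratio within a library does not depend on scaling between libraries, and the ratios given were chosen after their values were seen. The ratio of Cflar to Casp8 reads was 4.21 and 4.70 in WT against 2.47 and 2.41 in Rxra-KO, 4.46 ± 0.343 against 2.44 ± 0.0382 (SD, n = 2). With 2 libraries a group the smallest 2-sided exact permutation p is 0.333, so this test could not reach 0.05 here, and the ratios are given as a description. The ratio of Bcl2 to Bax reads was 1.09 and 1.46 in WT against 0.865 and 0.945 in Rxra-KO, also without overlap. The ratio of Mcl1 to Bax reads ran from 6.33 to 14.5 in WT, which spans the Rxra-KO values of 9.89 and 10.7.

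The death receptors and their adaptors did not pass the test, with log2 fold changes of -0.05 to 0.32. Ripk1, the kinase that relays TNF receptor signals to survival or death, had the highest normalised read count of the group, though not per kilobase, where Fas was first. It was at 123 and 134 in WT against 100 and 153 in Rxra-KO. Its Rxra-KO libraries spread wider than the WT ones and enclosed them. Tnfrsf1a, the receptor TNFR1, was the only gene of this group without overlap, at 64.4 and 73.2 in WT against 79.1 and 92.9 in Rxra-KO (log2 fold change 0.32, limma adjusted p = 0.843). Fas was at 44.7 and 75.4 in WT against 42.9 and 80.9 in Rxra-KO. Its level was higher in the deeper library of each group, as was that of Bcl2l1. Tnfrsf10b, the mouse TRAIL receptor, and Fadd, the adaptor of FAS, overlapped.

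In the necroptosis pair, Ripk3, the kinase, was at 20.4 and 22.2 in WT against 20.3 and 24.3 in Rxra-KO. Mlkl, the membrane-rupturing effector that RIPK3 phosphorylates, had 9 and 7 reads in WT against 1 and 2 in Rxra-KO. These reads gave a ratio of WT to Rxra-KO of 5.63 with a counting interval of 1.61 to 30.2, which covers counting error only. Its log2 fold change was -1.82 (limma adjusted p = 0.322), and with 3 reads in the Rxra-KO libraries together the gene was at the edge of detection.

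Trp53, the tumour suppressor p53, was at 17.4 and 21.2 in WT against 11.3 and 11.4 in Rxra-KO, which did not pass the test (log2 fold change -0.71, limma adjusted p = 0.774). Of its known target genes in the list, Bbc3 had a log2 fold change of -0.85, Apaf1 of -0.66, Fas of 0.02, Tnfrsf10b of 0.06, Pmaip1 of 0.11 and Bax of 0.11, and none of these passed.

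Calpains are cytosolic proteases with a broad role in the cytoskeleton and cell movement, and they can cleave BCL2 family proteins. Capn2 was at 182 and 101 in WT against 609 and 343 in Rxra-KO, 142 ± 57.3 against 476 ± 188.0 (SD, n = 2), from 120, 93, 404 and 345 reads. The lower Rxra-KO library was above the higher WT library. The log2 fold change was 1.74 with an SE of 0.25 and a 95% interval of 1.26 to 2.23 (limma with mean-variance trend, adjusted p = 5.79e-09). The study named Capn2 as a death gene from these libraries, so its place in the list is no independent evidence of its direction. Outside these libraries, the study reported more accessible chromatin at Capn2 in LPMs of mice lacking both Rxra and Rxrb. It also measured apoptosis genes by qPCR in LPMs of that genotype. For RXR-deficient LPMs of adult mice it described Capn2 and Mef2c as higher and Naip1 and Cd5l as lower. In adult mice lacking both genes it found more Annexin-V+ (apoptotic) cells among lipid-loaded LPMs that carry TIM4. From the present libraries, its gene set enrichment placed apoptosis-related modules among the most enriched pathways in Rxra-KO, a test not repeated here.

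The call for Capn2 depended on how the spread was estimated. With 2 libraries a group, limma borrows the spread from genes of like level. When that trend was left out, the adjusted p of Capn2 was 0.514 and limma called 0 of 18364 genes, with 1579 at an unadjusted p under 0.05. Voom, edgeR and DESeq2 on the recovered reads each called Capn2 and 422, 446 and 246 genes in all. Without WT 2 the log2 fold change was 1.32, and without WT 1 it was 2.16, and Capn2 was called in each of the 4 fits that left out a library. Of the 6 markers of small peritoneal and monocyte-derived macrophages, 4 were called higher in Rxra-KO, as Capn2 was. Itgax was lower, at 8.33 and 13.6 in WT against 3.76 and 6.46 in Rxra-KO, and was not called. Cd226 had 1 to 3 reads in each library. Within Rxra-KO the sum of the 6 markers was lower in the library with the higher Capn2 (3050 beside 609, and 4480 beside 343). Retnla (1589 and 3013 in Rxra-KO 1 and 2) and Ccr2 (376 and 655) were also lower in it. Mrc1 (1011 and 739) and Irf4 (62.5 and 58.1) were higher in it. The part of these markers in the Capn2 result was not tested.

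The partners of calpain-2 did not pass the test. These genes were picked for naming after their values were seen. Capns1, the small subunit that calpain-1 and calpain-2 share, was at 202 and 195 in WT against 181 and 214 in Rxra-KO (log2 fold change -0.01, interval -0.50 to 0.48). Cast, the calpain inhibitor calpastatin, was at 142 and 149 in WT against 111 and 145 in Rxra-KO (log2 fold change -0.19, interval -0.72 to 0.33). The ratio of Capn2 to Capns1 reads was accordingly 0.902 and 0.520 in WT against 3.37 and 1.6 in Rxra-KO. Capn1, the large subunit of calpain-1, had 3 to 5 reads in each library.

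**Figure D4:**
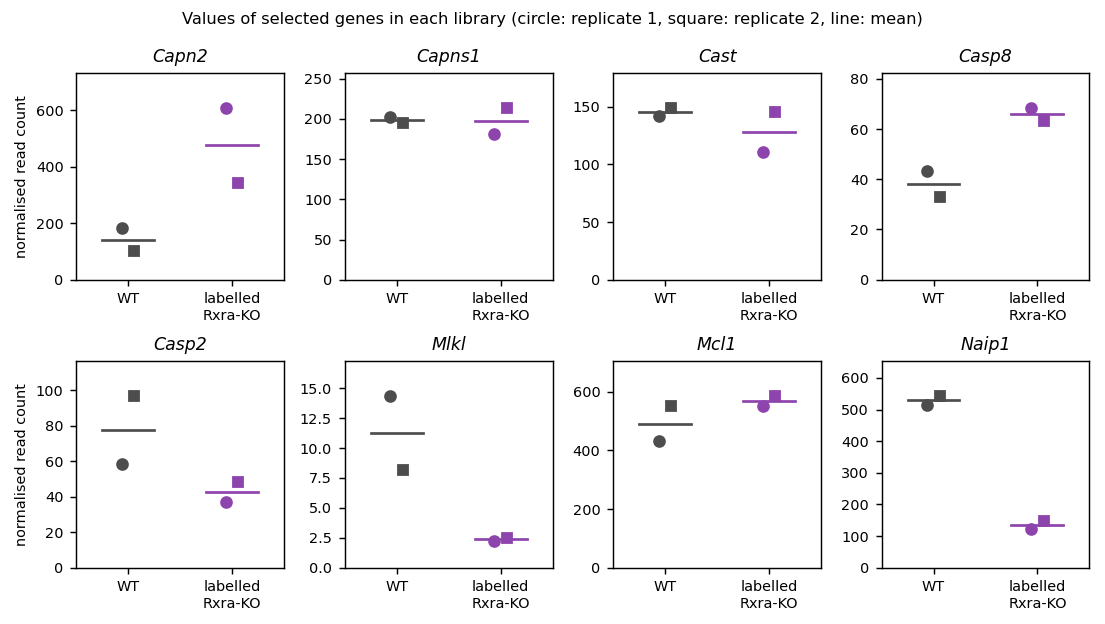
Normalised read count of 8 genes in each library (vertical axis from 0 in each panel; circle replicate 1, square replicate 2, line the group mean). Capn2 separates the groups while its subunit Capns1 and inhibitor Cast overlap between them, and Naip1 is lower in both libraries labelled Rxra-KO.

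The promoter of Capn2 is shown because Capn2 was the called member and RXR acts on DNA. The 250 bases upstream of its start in RefSeq (GRCm38.p6, chr1:182517611-182517860, minus strand, 62.8% G and C) were read 5′ to 3′ as follows, with capitals reserved for the letters AGGTCA, the nuclear receptor half-site, on either strand.
Capn2: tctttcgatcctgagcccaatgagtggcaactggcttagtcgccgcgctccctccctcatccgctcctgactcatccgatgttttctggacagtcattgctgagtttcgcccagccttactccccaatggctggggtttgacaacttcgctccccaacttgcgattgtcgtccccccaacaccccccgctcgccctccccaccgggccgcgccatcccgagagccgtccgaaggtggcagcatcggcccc

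The stretch held 0 such sites, which says only that these letters are not in this window. In windows from 250 bases before to 50 after a start, AGGTCA on either strand was found in 5 of 46 promoters of the members (10.9%), those of Bcl2l1, Bcl2l2, Bmf, Aifm1 and Xiap, and in 16.3% of all 32851 promoters. A promoter entry was held for 33 of the 36 members, some with several starts. Exact direct repeats of the half-site with 1 base (DR1) or 5 bases (DR5) between them, forms that RXR pairs can bind, were in 0 of the 46, and in 13 and 3 of all promoters.

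Set against each other, survival and death genes both had a median log2 fold change near that of all genes (0.02). It was 0.01 over the 9 survival genes and 0.02 over the 27 death genes. Among survival genes 5 were positive and 4 negative, and 0 were called by limma (0 at an unadjusted p under 0.05) and likewise 0 by voom, edgeR and DESeq2. Among death genes 15 were positive and 12 negative, and leaving out the 9 whose main work lies elsewhere, such as Cycs and Capn2, gave a median of 0.04. The median of death genes was -0.11 without WT 1 and 0.09 without Rxra-KO 1, so its sign rested on single libraries. The median of survival genes ranged from -0.13 without Rxra-KO 2 to 0.27 without Rxra-KO 1, and was also negative under 2 other scalings, edgeR and DESeq2. Under those scalings, edgeR, DESeq2 and the main fit, the middle gene was Bcl2l1.

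Survival genes took 42.5% of the reads on members in WT 1 (exact 95% binomial interval 39.8 to 45.2%) and 43.5% in WT 2 (41.3 to 45.7%). In Rxra-KO 1 the share was 36.7% (34.4 to 39.1%) and in Rxra-KO 2 it was 41.5% (39.6 to 43.5%). Both Rxra-KO shares were below both WT shares, but the intervals of Rxra-KO 2 and both WT libraries overlapped. Capn2 was then left out because it was the called member. Leaving out a death gene that is higher in Rxra-KO raises the survival share most there, so a turn of the order is no separate result. Without Capn2 the order turned, to 46.7% and 45.6% in WT against 48.7% and 48.4% in Rxra-KO, and the intervals of all 4 libraries overlapped (43.8 to 49.5%, 43.3 to 47.8%, 45.9 to 51.5% and 46.2 to 50.5%). Without Mcl1 as well the shares were 30.5%, 26.1%, 27.3% and 28.2%, and the groups overlapped. The intervals cover counting error only, since the reads carry no molecular identifiers.

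**Figure D5:**
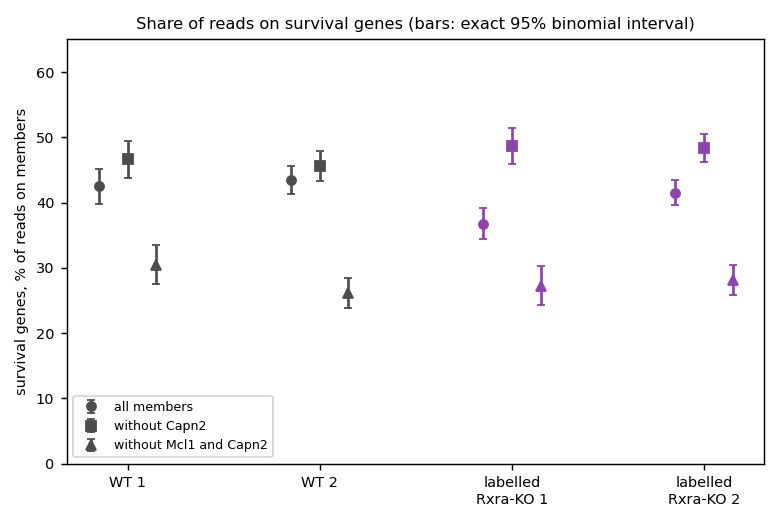
Percent of the reads on members that fell on survival genes (vertical axis) in each library, with all members (circles), without Capn2 (squares) and without Mcl1 and Capn2 (triangles); bars are exact 95% binomial intervals. With all members the Rxra-KO libraries are at 36.7% and 41.5%, below WT, and without Capn2 they are at 48.7% and 48.4%, above it.

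Levels can be compared between genes only per length of transcript. Per kilobase of the longest coding transcript in GENCODE M21, Mcl1 was the most abundant member in both groups, at 144 ± 24.3 in WT and 167 ± 7.18 in Rxra-KO (normalised read count per kilobase, SD, n = 2). In WT it was followed by Htra2 (58.7 ± 0.779), Bax (48.8 ± 19.5), Cycs (48.3 ± 9.03) and Capn2 (44.0 ± 17.8). Of these, Bax, Cycs and Capn2 lay within each other's spread, and Htra2 lay within that of Bax and of Capn2. In WT 1, Bax (62.63) was above Htra2 (59.25). As given above, Htra2 and Cycs share part of their words with other genes. In Rxra-KO Capn2 came second, at 148 ± 58.3, within its spread of Mcl1. Bcl2, at 9.10 ± 1.88 per kilobase in WT, was far below Mcl1, and the BH3-only genes lay between 2.99 and 6.32.

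Beyond the list, 65 further genes of the same pathways were followed, 61 with an entry, of which 31 were positive and 30 negative with a median log2 fold change of 0.00. Limma called 1 of the 61, none higher and 1 lower, beside 2.29% of all genes, and 10 had an unadjusted p under 0.05 (16.4%, beside 10.1% of all genes). Of these, 3 were higher (4.92%, beside 5.68%) and 7 lower (11.5%, beside 4.42%). The called gene was Naip1, which encodes an inflammasome sensor of the bacterial secretion needle and is grouped with the inhibitors of apoptosis by its BIR domains. It fell from 514 and 544 in WT to 123 and 147 in Rxra-KO (log2 fold change -1.97, limma adjusted p = 4.64e-12, or 0.453 without the trend). The study named Naip1 as a survival gene from these libraries, so this too is no independent evidence. Outside these libraries, the study reported less accessible chromatin at Naip1 in LPMs lacking both Rxra and Rxrb, beside the qPCR mentioned above. Naip1 shares 45.3% of its words with other genes, most of all with Naip3. Naip5, at 151 and 175 in WT against 86.6 and 87.9 in Rxra-KO, just missed the threshold (log2 fold change -0.89, limma adjusted p = 0.0564). It shares 53.1% of its words with other genes, most of all with Naip6, so its level is uncertain too.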

How the data were processed

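RNA of sorted LPMs was amplified by the authors as full-length cDNA (SMART-Seq v4, low input, no molecular identifiers) and run on a NextSeq-500. Per the submitters' processing notes and the study's methods, transcripts were quantified with kallisto 0.43.0, brought to gene level by tximport, scaled by TMM and tested in limma. A GRCh38 reference is named for these mouse libraries. It was not settled which reference or counter was behind the reads, so no coordinates of the table's genes are given. RNA-seq samples that failed to cluster with their group were dropped by the study and were not analysed here. Replicate numbers are those of the sample titles (1 and 2), not of the table's columns (2 and 3).

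The deposited values are a normalised signal, which the authors made as (reads + 0.5) divided by the TMM-scaled library size. Whole reads were recovered for 100% of values (tolerance 0.001). The test was limma 3.58.1 (R 4.3.3) with a mean-variance trend on log2(value + 1), which understates the change of low genes, over all 4 libraries and all 18364 genes, with Benjamini-Hochberg adjustment and the study's thresholds. A minimum value of 1, required in 2 or more libraries, removed 0 genes. On the recovered reads, edgeR 4.0.16 and DESeq2 1.42.0 were alternatives, beside voom, other pseudocounts, filters, scalings, a replicate block and leaving out each library. Scripts were tested on simulated data. Libraries with the same number were not paired by the labels, and the closing section gives the check.

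The members, their roles and the lists of other pathway genes and markers were chosen with earlier results of these data known. All members may be named. Values of every library were given for members that were called, that had an unadjusted p under 0.05 or that were highest in their role, and for others chosen after their values were seen. Of other pathway genes the called ones were named. Some single genes of that list are not reported here. Of the remaining marker lists, the summed levels in WT and Rxra-KO were, in library order, 46.9, 55.3, 99.4 and 124 for dendritic cells (6 genes), 10.6, 17.4, 22.6 and 14.9 for B cells (4), 31.8, 28.2, 39.1 and 27.8 for T and NK cells (2), 29.5, 23.3, 21.8 and 16.4 for mast cells (5), 230, 253, 188 and 240 for neutrophils (4), and 67.4, 89.5, 56.5 and 59.1 for mesothelium (5, Upk3b at 0 reads in WT). Sequences come from GENCODE M21 and RefSeq promoters (GRCm38.p6).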

Additional observations from a re-analysis of the deposited data

How the results depend on the processing

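Capn2 stayed the called member in all alternatives run except limma without the mean-variance trend, which called 0 members, also when restricted to genes that reached a value of 10 in 2 or more libraries (adjusted p of Capn2 0.514 and 0.246). Without the trend the other pathway genes called were likewise 0, in both cases, and 0 and 26 of all genes were called, against 421 with the trend. DESeq2 called 246 of all genes, or 191 without its independent filtering, and leaving out a library gave 167 to 381. Other pathway genes called were 2, Naip1 and Naip5, under median-of-ratios and under upper quartile scaling. The median of death members ranged from -0.1111 to 0.0949 when a library was left out, and that of survival members from -0.1302 to 0.2666. The survival median was also -0.0094 under median-of-ratios and -0.0069 under upper quartile scaling, -0.0382 under edgeR and -0.0636 under DESeq2.

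Whether libraries with the same replicate number shared a batch cannot be settled with 2 libraries a group. Depth followed the number, with 652542 and 629030 reads in WT 1 and Rxra-KO 1, and 947372 and 1047021 in WT 2 and Rxra-KO 2. Their deviations from the group means correlated at 0.035 over all genes and 0.028 over the members. With the replicate block, 540 of all genes and 3 other pathway genes (Naip1, Naip5 and Pdcd4) were called, and 1 member, Capn2.

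Of 636 values of single members under alternatives, 600 kept direction and call, and no member gained a call. Of the 4 members with an unadjusted p under 0.05, DESeq2 left Capn2 alone, and limma without the trend left Mlkl and Capn2. The sign of 17 members changed when a library was left out, and 19 members kept their sign in every alternative. Their log2 fold changes then ranged from -0.5684 to 0.5861 for Bcl2l1, -0.2995 to 0.5233 for Bax, -0.0287 to 0.2515 for Bid, -1.0376 to 0.337 for Bad, -0.1203 to 0.3335 for Pmaip1, -0.1454 to 0.2357 for Cycs, -0.3304 to 0.2828 for Diablo, -0.5682 to 0.6089 for Aifm1, -0.3346 to 0.4975 for Endog, -0.1302 to 0.4501 for Xiap, -0.071 to 0.283 for Birc3, -0.1691 to 0.0546 for Cflar, -0.4277 to 0.4724 for Fas, -0.0983 to 0.2189 for Tnfrsf10b, -0.3577 to 0.2533 for Ripk1, -0.0658 to 0.1826 for Ripk3 and -0.5512 to 0.114 for Capn1. Bcl2l1 was also negative under median-of-ratios (-0.0094) and upper quartile scaling (-0.0069), edgeR (-0.0382) and DESeq2 with or without its filtering (-0.0636), and Aifm1 under voom (-0.1566) and edgeR (-0.0257). The cause was not tested. Alternatives without the trend at a value of at least 10, DESeq2 without filtering, ratios within a library and the death median without Capn2 (0.02) were chosen after seeing the data. The shares of reads on survival genes, with the genes left out of them, were not among the planned results either.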
